A study of Arabidopsis thaliana with 8 samples.

Results

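The genes described here are the cation/proton exchangers of Arabidopsis thaliana in 3 families, CHX (28 genes), KEA (6 genes) and NHX with SOS1 (7 genes). They were picked by locus ID as members of these families, with earlier results of these data known. All 41 were among the 28775 genes of the deposited expression table. Of them, 39 had reads under both treatments and could be compared, among 24945 such genes in the table; the other 2, CHX10 and CHX12, had no reads.

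Messenger RNA was sequenced from floral buds of mixed stages. All plants were of the L er strain and carried the 35S:GR-RBE transgene, in which a constitutive viral promoter drives RABBIT EARS (RBE), a zinc-finger transcription factor of petal development, joined to the hormone-binding domain of a glucocorticoid receptor. Buds were given 10 µM dexamethasone (DEX) in 0.1% ethanol with 0.015% Silwet, or the same solution lacking dexamethasone (mock), for 4 h. There were 4 libraries per treatment: 2 biological replicates, each run as 2 technical replicates. No DEX-treated plants without the transgene were used here, so the steroid itself and the nuclear entry of the fusion protein cannot be told apart. RBE reads, in which native gene and transgene were counted together, numbered 21775 in DEX and 28895 in mock (log2 ratio -0.19 ± 0.01); this checks neither the labels nor the nuclear entry.

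The deposited table gives 1 value per gene and treatment, pooled over the libraries. Depth was about 102142647 reads for DEX and 119056377 for mock, recovered from a deposited log-likelihood score by a formula that no source states. Errors written as ± are standard errors from read counting alone, and no difference has a replicate check. Calls of higher or lower required reads in both pools and, in the authors' deposited table, a posterior probability below 0.05 for the other direction. For ratios shifted by the median of all genes or corrected for GC content and length, calls used the ratio over its counting error. Among 24945 genes, 36.4% were called higher and 20.8% lower (57.2% in all), so a call by itself is common, and 26 of the 39 exchangers were called. The ratio was above 1 for 61.9% of all genes and for 31 of the 39 exchangers. Over all genes with 3000 to 10000 reads the log2 ratio had an SD of 0.23, while the median counting error was 0.039. Levels are given as RPKM, the reads of a gene scaled to its exonic length in kb and to the depth of the pool, so that genes of different length can be compared.

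These carriers exchange potassium or sodium for protons across a membrane, and so set the ion content and the pH of the compartments they enclose. Most CHX genes are known as genes of pollen, whose grains and tubes depend on potassium and proton fluxes, while the branch from CHX16 to CHX20 is best known from endomembranes of other cells. KEA carriers work in plastids and in the endomembrane system. NHX carriers load vacuoles, Golgi and endosomes with potassium or sodium, and SOS1 exports sodium at the plasma membrane.

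CHX transcripts were mostly higher in the DEX pool, KEA transcripts differed little, and NHX transcripts went both ways. Of the 26 CHX genes with reads in both pools, 17 were called higher, 1 lower and 8 neither. Their median log2 ratio was 0.44, beside 0.05 over all genes, and their quartiles were 0.19 and 0.56, beside -0.08 and 0.19 over all genes. Of 6 KEA genes, 1 was called higher, 1 lower and 4 neither, with a median of 0.015. Of the 7 genes of the NHX group, 4 were called higher, 2 lower and 1 neither, with a median of 0.11. Over all genes, 36.4% were called higher and 20.8% lower. The 28 CHX genes together had a summed level of 155 in DEX and 120 in mock, while the KEA sums were 104.1 and 103.8 and the NHX sums 107.6 and 102.3. In whole buds, a larger share of cells that express a gene and more RNA per cell cannot be told apart.

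**Figure D1:**
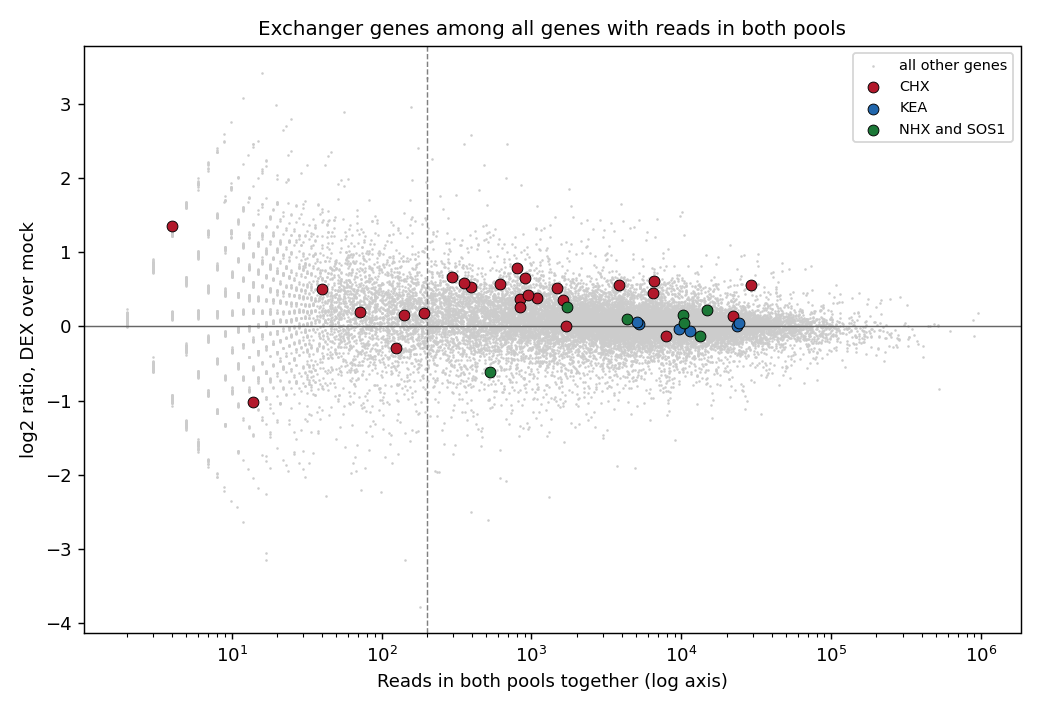
Log2 ratio of DEX over mock (vertical axis) against reads in both pools together (horizontal log axis), for all 24945 genes with reads in both pools (grey) and the exchanger genes by family (colour); the dashed line marks 200 reads. The CHX genes with over 200 reads lie almost entirely above 0, at a median of 0.51, while the KEA genes lie between -0.06 and 0.06.

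CHX23 was the CHX gene with the highest level. With CHX21 it is needed for pollen tubes to grow towards ovules. CHX23 (AT1G05580; TAIR10.1 chromosome 1, 1665356 to 1668924, minus strand) had 16134 reads in DEX and 12816 in mock. Its level was 53.1 in DEX and 36.2 in mock, at percentile 88.9 of all genes with reads in both pools. The log2 ratio was 0.55 ± 0.02, or 1.47-fold higher in DEX, and the gene was called higher. Its share of all CHX reads was 34.9% in DEX (95% exact binomial interval 34.4 to 35.3) and 30.6% in mock (30.1 to 31.0), an interval of counting error only. CHX21 (AT2G31910), the CHX gene closest to it in sequence, had 36 reads in each pool and a log2 ratio of 0.20 ± 0.34, and was not called. Its exons overlap those of other genes on both strands, 1284 bases of them on the opposite strand, so some of these few reads may come from neighbours.

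CHX6A, CHX5 and CHX8, a group of related and little-studied pollen exchangers, had the next highest levels outside the CHX16 to CHX20 branch. CHX6A (AT1G08140; chromosome 1, 2551935 to 2555229, minus strand) had 3760 reads in DEX and 2854 in mock, levels of 12.8 and 8.31, and a log2 ratio of 0.62 ± 0.04. CHX5 (AT1G08150; chromosome 1, 2556191 to 2559228, minus strand) had 3478 and 2972 reads, levels of 12.4 and 9.06, and a log2 ratio of 0.45 ± 0.04. CHX8 (AT2G28180) had 2136 and 1697 reads, levels of 8.53 and 5.82, and a log2 ratio of 0.55 ± 0.05. All of them were called higher, and CHX6A was past 1.5-fold at 1.54-fold.

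CHX13 had the highest ratio of any called exchanger. It is a carrier of the plasma membrane that takes up potassium with high affinity. CHX13 (AT2G30240; chromosome 2, 12899575 to 12902815, minus strand) had 475 reads in DEX and 321 in mock, levels of 1.62 and 0.942. Its log2 ratio was 0.79 ± 0.10, or 1.72-fold higher. Its nearest relative, CHX14 (AT1G06970), is known from the same membrane, where it has been linked to potassium release. CHX14 had 426 and 416 reads, levels of 1.45 and 1.21, and a smaller log2 ratio of 0.26 ± 0.10, called higher as well.

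The other called CHX genes outside the CHX16 to CHX20 branch had DEX levels of at most 3.08, and all of them were called higher. These genes are known mainly as pollen transcripts. CHX1 (AT1G16380) had 200 reads in DEX and 155 in mock, with a ratio just past 1.5-fold (log2 0.59 ± 0.15). CHX2 (AT1G79400) had 505 and 437 reads and a log2 ratio of 0.43 ± 0.09. CHX6B (AT1G08135), which lies beside CHX6A, had 219 and 177 reads and a log2 ratio of 0.53 ± 0.15. CHX15 (AT2G13620) was deeper, with 817 and 666 reads and a log2 ratio of 0.51 ± 0.08. CHX27 (AT5G01690) had 344 and 271 reads and a log2 ratio of 0.57 ± 0.12. Lower ratios came from CHX24 (AT5G37060), at 0.37 ± 0.10 from 442 and 400 reads. CHX25 (AT5G58460), its close relative, stood at 0.35 ± 0.07 from 850 and 777 reads. CHX28 (AT3G52080), which shares 252 exonic bases with a gene on the opposite strand, stood at 0.38 ± 0.09 from 579 and 518 reads.

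**Figure D2:**
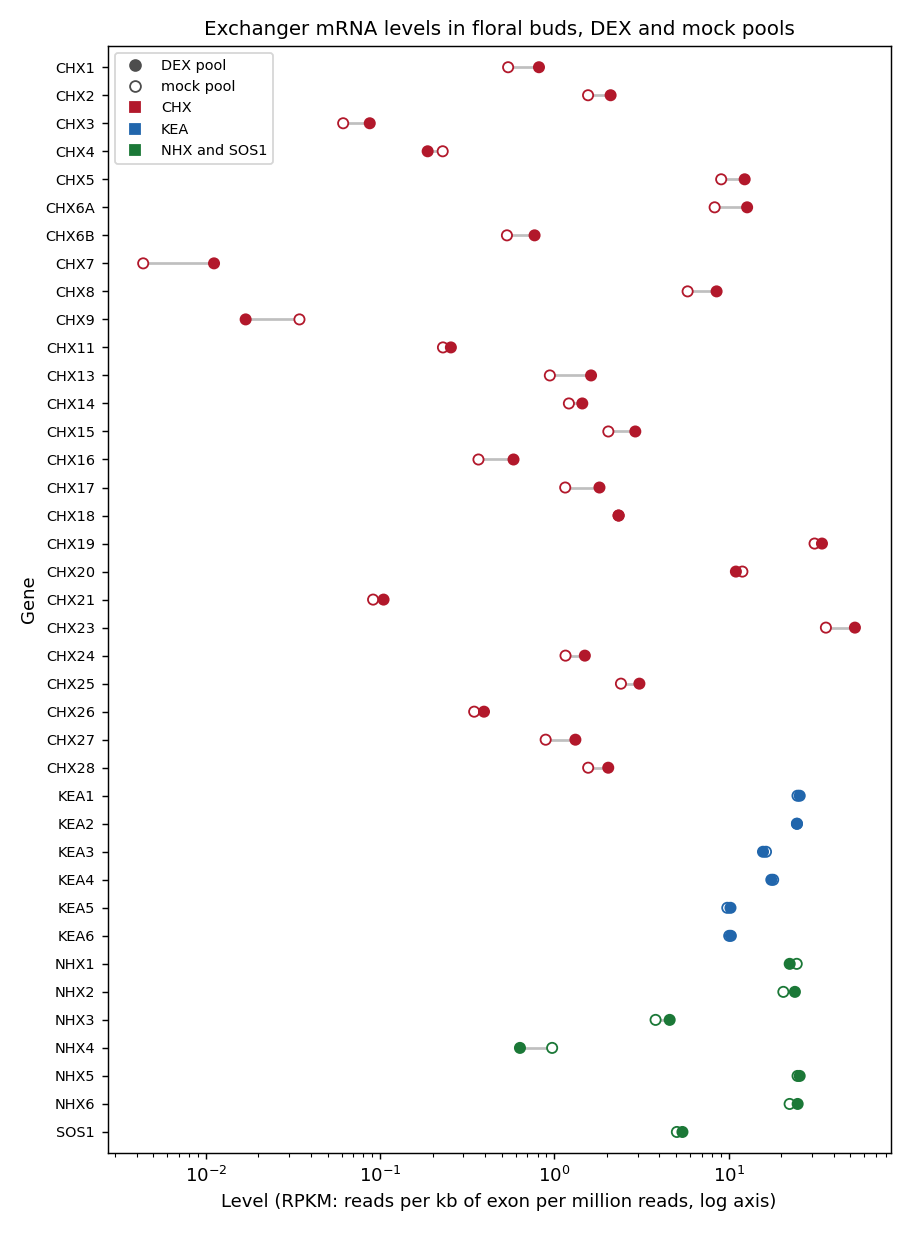
Level of each exchanger gene with reads in both pools (RPKM, log axis) in the DEX pool (filled) and the mock pool (open), coloured by family, 1 value per pool. CHX levels run from under 0.01 to over 50, with CHX23 highest at 53.1 in DEX and 36.2 in mock, while KEA levels stay between 9.83 and 25.6 and barely move.

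The CHX genes without a call were mostly those with few reads. Of the 8 that were not called, 7 had fewer than 200 reads over both pools: CHX3, CHX4, CHX7, CHX9, CHX11, CHX21 and CHX26. CHX26 had 95 reads in DEX and 97 in mock, at 0.19 ± 0.21 (log2 ratio), and CHX11 had 69 and 73 reads, at 0.15 ± 0.24. CHX4 had 51 and 73 reads, at -0.29 ± 0.26, and CHX3 had 22 and 18 reads, at 0.51 ± 0.46. The extremes of the family were its thinnest genes: CHX7 had about 3 reads in DEX and 1 in mock, at 1.35 ± 1.56, and CHX9 had 4 and 10, at -1.03 ± 0.84. At this depth a difference of the size seen in CHX23 was not detectable for CHX3, CHX7 or CHX9, and CHX21 (± 0.34) was near that limit. CHX10 (AT3G44930) and CHX12 (AT3G44910) had 0 reads in both pools. A count of 0 allows up to 3 reads, a level of 0.0110 in DEX and 0.00943 in mock for CHX10, and of 0.0127 and 0.0109 for CHX12. Among the 19 CHX genes with at least 200 reads, 17 were called higher, 1 lower and 1 neither, with a median of 0.51; of all 19983 genes that deep, 41.8% were called higher and 24.5% lower. That filter uses the sum of both pools.

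The CHX16 to CHX20 branch was mixed. Its members sort ions and pH in endosomes and prevacuoles, and CHX20 acts in guard cells, where it takes part in stomatal opening. CHX19 (AT3G17630) was the deepest of them, with 10694 reads in DEX and 11302 in mock, levels of 34.3 and 31.1, and a log2 ratio of 0.14 ± 0.02, called higher; with the median of all genes set to 0 the ratio was 0.09. CHX20 (AT3G53720) was the one CHX gene called lower, with 3467 and 4403 reads, levels of 11.01 and 11.996, and a log2 ratio of -0.12 ± 0.03; corrected for GC content and length it was -0.06, still called. CHX17 (AT4G23700), a carrier of the prevacuolar compartment, had 522 and 387 reads, levels of 1.81 and 1.15, and a log2 ratio of 0.65 ± 0.10. CHX16 (AT1G64170) had 171 and 126 reads, levels of 0.583 and 0.367, and a log2 ratio of 0.67 ± 0.17. Both CHX16 and CHX17 were past 1.5-fold, at 1.59-fold and 1.57-fold. CHX18 (AT5G41610) had 786 and 914 reads, levels of 2.34 and 2.33, and a log2 ratio of 0.0048 ± 0.070, not called. An antisense gene, AT5G41612, covers 2875 of its 3290 exonic bases, and the sources used here do not say whether counting used strand, so reads of the pair cannot be told apart. The median of the branch was 0.14 over 5 genes, and that of the 21 other CHX genes was 0.45. Without the branch, 14 CHX genes were called higher and 0 lower. The summed level of the branch was 50.1 in DEX and 47.0 in mock, and that of the other CHX genes 105 and 73.2.

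**Figure D3:**
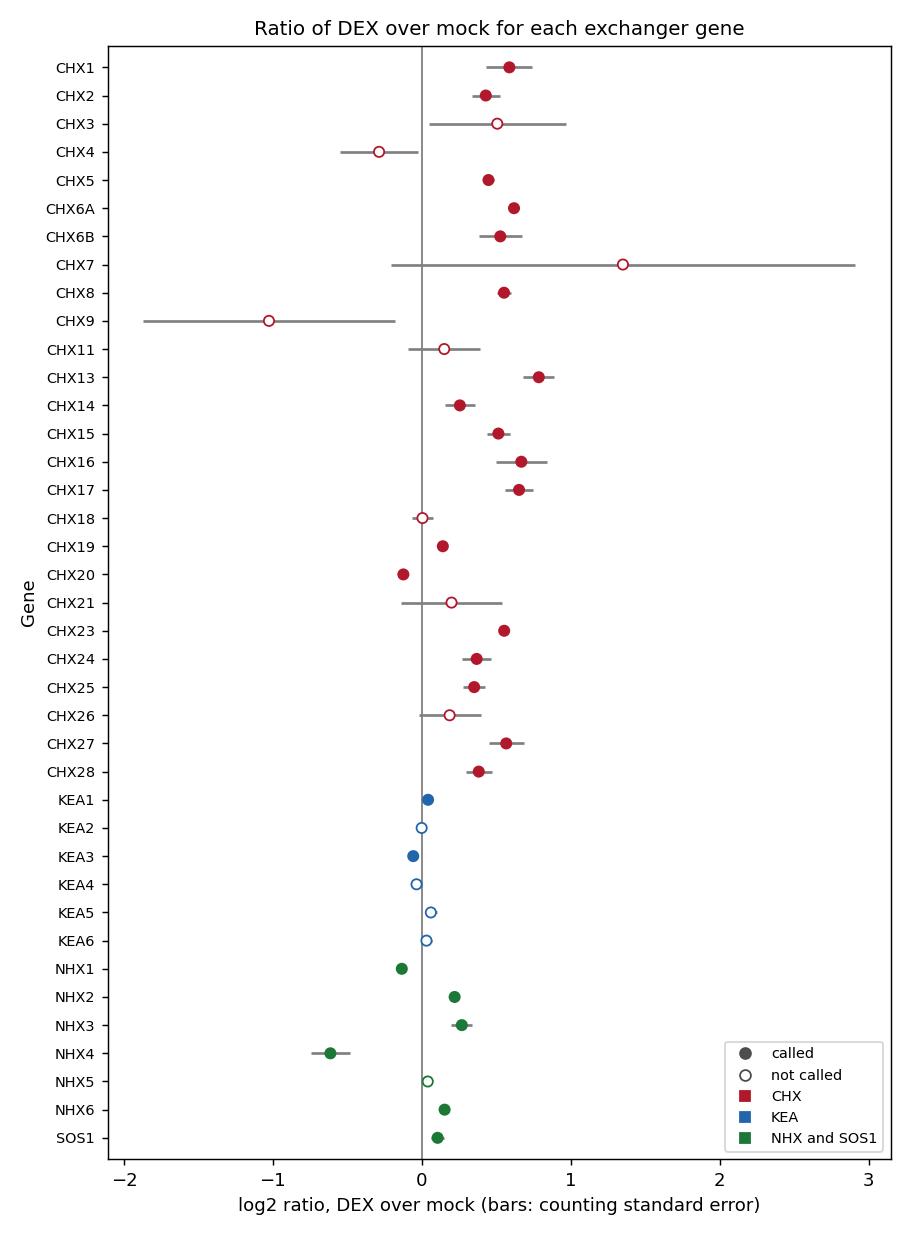
Log2 ratio of DEX over mock for the 39 exchanger genes with reads in both pools, coloured by family; filled points were called, open points were not, and bars are the counting standard error. The called CHX genes lie between -0.12 and 0.79 and all but CHX20 are above 0, the KEA genes lie between -0.06 and 0.06, and NHX4 is the lowest called gene at -0.61.

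The 6 KEA genes hardly differed between the pools, at depths of 5079 to 24222 reads over both pools. KEA1 and KEA2 exchange potassium for protons at the inner envelope of chloroplasts. KEA1 (AT1G01790) had 11361 reads in DEX and 12861 in mock, levels of 25.6 and 24.9, and a log2 ratio of 0.042 ± 0.019. It was called higher, with a posterior of 0.0127 for the other direction in the authors' deposited table. KEA2 (AT4G00630) had 10771 and 12561 reads and a level of 24.7 in each pool; it was not called. KEA3 works in the thylakoid membrane, where it adjusts the proton gradient of photosynthesis. KEA3 (AT4G04850) had 5166 and 6266 reads, levels of 15.8 and 16.4, and a log2 ratio of -0.057 ± 0.027, called lower. KEA4, KEA5 and KEA6 belong to the Golgi and endosomes. KEA4 (AT2G19600) stood at -0.035 ± 0.029, KEA5 (AT5G51710) at 0.061 ± 0.041 and KEA6 (AT5G11800) at 0.031 ± 0.040, none of them called. Both KEA calls rest on ratios about as far from 0 as the median of all genes. With that median of 0.05 set to 0, KEA1 stood at -0.012 and was no longer called, and 3 KEA genes were called lower, KEA3 at -0.11.

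NHX1 and NHX2, the main vacuolar exchangers, were called in opposite directions. NHX1 (AT5G27150) had 5845 reads in DEX and 7478 in mock, levels of 22.4 and 24.6, and a log2 ratio of -0.13 ± 0.03, called lower. NHX2 (AT3G05030) had 7417 and 7420 reads, levels of 24.0 and 20.6, and a log2 ratio of 0.22 ± 0.02, called higher. A gene on the opposite strand overlaps 271 of the exonic bases of NHX2. NHX3 (AT5G55470), a lower vacuolar member, had 872 and 844 reads, levels of 4.59 and 3.81, and a log2 ratio of 0.27 ± 0.07, called higher. NHX4 had the lowest ratio of any called exchanger. NHX4 (AT3G06370; chromosome 3, 1929946 to 1934073, minus strand), another vacuolar member, had 190 and 339 reads, levels of 0.634 and 0.971, and a log2 ratio of -0.61 ± 0.13, or 1.53-fold lower. It was the 1 of 39 exchangers called lower by 1.5-fold, where 2.91% of all genes were. Of the 26 CHX genes with reads in both pools, 5 were called higher by 1.5-fold, where 4.45% of all genes were.

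NHX5 and NHX6 act in the Golgi and endosomes, and SOS1 removes sodium from the cell under salt stress. NHX5 (AT1G54370) had 4898 reads in DEX and 5552 in mock, levels of 25.6 and 24.9, and a log2 ratio of 0.040 ± 0.028, not called. NHX6 (AT1G79610) had 4973 and 5212 reads, levels of 24.9 and 22.4, and a log2 ratio of 0.15 ± 0.03, called higher, or 0.10 with the median of all genes set to 0. SOS1 (AT2G01980) had 2093 and 2266 reads, levels of 5.43 and 5.05, and a log2 ratio of 0.11 ± 0.04, also called higher. That call was lost with the median of all genes set to 0, at 0.05, and with the correction for GC content and length, at 0.07. The NHX group has no common direction in these pools, and without its 3 members that overlap other genes its median was -0.014 in place of 0.11.

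Genes closest in sequence were compared next, since close relatives among these carriers can have overlapping functions. Of 13 such pairs, 12 had reads for both genes, and in 4 the difference of the log2 ratios had a 95% counting interval without 0. That share was not computed for unrelated genes, so the count cannot be read as particular to close relatives. Over all genes with 3000 to 10000 reads, the SD of the log2 ratio was 0.23 and the median counting error 0.039. NHX2 exceeded NHX1, with which it shares 85.4% of 1298 aligned exonic bases, by 0.35 (0.29 to 0.42). CHX17 exceeded CHX18 by 0.65 (0.41 to 0.88), the pair touched by the antisense gene. CHX14 lay below CHX13 by 0.53 (difference -0.53, interval -0.81 to -0.25) at 73.1% identity. NHX5 lay below NHX6 by a smaller step (-0.11, interval -0.19 to -0.03). For the other pairs the interval spanned 0, which does not show that they act alike. KEA1 and KEA2, with 83.8% identity, differed by 0.043 (-0.009 to 0.095), and CHX24 and CHX25, with 82.0%, by 0.02 (-0.22 to 0.26). These intervals cover counting error and no spread between replicates. No whole alignment of at least 100 bases with a gene elsewhere reached 95% identity, the closest pair being CHX10 and CHX11 at 90.3%. Stretches of higher identity within an alignment were not searched for, so reads shared between relatives are not excluded. Exons of other genes overlap those of 10 members: CHX18, CHX21, CHX28 and NHX2, described above, and CHX1, CHX7, CHX19, KEA2, NHX3 and NHX5. In CHX19 this concerns 139 bases on the same strand and 276 on the opposite strand.

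Several CHX genes lie side by side, and 8 neighbouring pairs of members lie within 10 kb. On chromosome 1, CHX6B, CHX6A and CHX5 stand in a row on the minus strand with gaps of 390 and 961 bases. All were called higher, with CHX6A above CHX5 by 0.17 (0.07 to 0.27) and CHX6B below CHX6A by a difference within counting error (-0.09, interval -0.39 to 0.20). CHX8 on chromosome 2 had 3833 reads over both pools, while CHX7, 1037 bases away, had 4. On chromosome 3, CHX4, CHX12, CHX11 and CHX10 form a row in which none passed 200 reads. CHX27 was called and its neighbour CHX26, 665 bases away on the other strand, was not, but their difference of -0.38 (CHX26 minus CHX27) had an interval of -0.85 to 0.09.

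The promoters of the CHX genes were searched for a MEF2-type CArG box, the site bound by the MADS-box factors AGL65, AGL66 and AGL104 of late pollen. The search was added with the expression values known, covered this box and the 5-letter motif AGAAA on both strands, and describes sequence only. The pattern searched for the box is its own reverse complement, though a single site need not read the same on both strands. In the 200 bases before the RefSeq start, it was present in 7 of 28 CHX genes (25%), in 0 of 6 KEA genes, in 0 of 7 NHX genes and in 502 of 27437 protein-coding genes (1.83%). Late pollen markers held it about as often as CHX genes, in 5 of 24 (20.8%). In 500 bases it was present in 12 of 28 CHX genes (42.9%) and in 1014 of 27436 protein-coding genes (3.70%), again with none in KEA or NHX and with 20.8% of late pollen markers. AGAAA was common everywhere, in 82.1% of CHX windows and 75.3% of all. The 7 CHX genes were CHX3, CHX4, CHX6B, CHX20, CHX23, CHX24 and CHX27. CHX3 and CHX4, like several other CHX genes, have no annotated bases between the gene start and the coding sequence. Their windows thus end at the coding sequence, while in KEA and NHX genes 68 to 951 bases lie between. The windows therefore cover unlike regions. In CHX4 the window also holds part of another gene's exon. CHX3 and CHX4 were not called and are not shown. The sequences of the 5 box carriers that were called follow, with the box in capitals. Each runs 5′ to 3′ on the gene's strand and comes from the RefSeq TAIR10.1 genome:
CHX23 (chr1:1668925-1668982, minus strand): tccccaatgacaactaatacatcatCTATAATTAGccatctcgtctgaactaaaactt
CHX27 (chr5:257247-257305, plus strand): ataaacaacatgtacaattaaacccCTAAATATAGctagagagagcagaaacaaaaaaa
CHX6B (chr1:2551580-2551639, minus strand): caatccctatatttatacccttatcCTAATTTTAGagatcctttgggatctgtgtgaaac
CHX24 (chr5:14645652-14645711, minus strand): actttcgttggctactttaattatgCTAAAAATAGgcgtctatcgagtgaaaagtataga
CHX20 (chr3:19910297-19910356, minus strand): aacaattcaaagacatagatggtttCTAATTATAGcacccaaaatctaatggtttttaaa

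The first base of the box lay 33 bases before the start in CHX23 and 34 in CHX27, and 70 in CHX6B, 74 in CHX24 and 87 in CHX20. CHX20, the CHX gene called lower, carries the box as well. The part of the box in the ratios was not tested, and genes were grouped by the 200-base window only. The 7 CHX genes with it had 4 called higher, 1 lower and 2 neither, at a median of 0.51. That median is the value of CHX3, which had 22 reads in DEX and 18 in mock. The 19 without it that had reads in both pools had 13 called higher, 0 lower and 6 neither, at a median of 0.43. Among these, CHX2, CHX7, CHX8, CHX11 and CHX25 carried it in the 500-base window. CHX13, CHX6A, CHX16 and CHX17, the genes with the highest ratios among those called, had no box in the 200-base window. The transcripts of AGL66, AGL104 and AGL65, chosen for naming after their values were seen, stood at 0.56 ± 0.09, 0.28 ± 0.07 and 0.23 ± 0.08, all called higher.

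Markers of late pollen were mostly called higher as well. Of 24 late pollen markers, 23 had reads in both pools and 21 were called higher, 1 lower and 1 neither. Their median log2 ratio was 0.42, with summed levels of 1077 in DEX and 845 in mock. All 23 had at least 200 reads, a depth at which 41.8% of all genes were called higher and 24.5% lower. VGD1, a pollen tube pectin methylesterase, had 91892 reads in DEX and 82633 in mock, at 0.37 ± 0.01, and its relative VGDH1 stood at 0.57 ± 0.02. AGP6, an arabinogalactan protein of pollen, stood at 0.29 ± 0.01. The 2 highest ratios among these markers were those of MYB120, a regulator of pollen tubes, at 0.82 ± 0.17 and of the pollen receptor kinase PRK2 at 0.66 ± 0.02. PPME1, another pollen pectin methylesterase, stood at -0.28 ± 0.03 and is named after its value was seen, as the 1 marker called lower. The marker AT4G39110 had 0 reads in both pools. The part of the amount or stage of pollen in the CHX ratios was not tested.

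Tapetum and guard cell markers had lower medians than the CHX genes. Of 17 tapetum markers, genes of the anther layer that feeds pollen, 12 were called higher, 2 lower and 3 neither. Their median was 0.07, with summed levels of 2733 in DEX and 2678 in mock. Of the tapetum markers, 1 had fewer than 200 reads. Over all genes with at least 200 reads, 41.8% were called higher and 24.5% lower. The tapetum markers were deeper than those genes, with a median of 31957 reads over both pools beside 4922. The 3 deepest stood near 0: GRP17 at 0.05 ± 0.01, MEE48 at -0.09 ± 0.01 and LTP12 at -0.01 ± 0.01. MS1 and MYB80, regulators of the tapetum, were higher at 0.57 ± 0.05 and 0.32 ± 0.08. Of 11 guard cell lineage markers, set beside CHX20, 3 were called higher, 5 lower and 3 neither, with a median of -0.08 and summed levels of 55.5 and 61.2. SPCH, which starts the stomatal lineage, was at -0.89 ± 0.07, the kinase HT1 at -0.54 ± 0.17 and the receptor TMM at -0.21 ± 0.03, all called lower. The potassium channel KAT1 was called higher at 0.21 ± 0.04, and FAMA, at 0.01 ± 0.05, was not called. The part of guard cells in the CHX20 ratio was not tested.

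**Figure D4:**
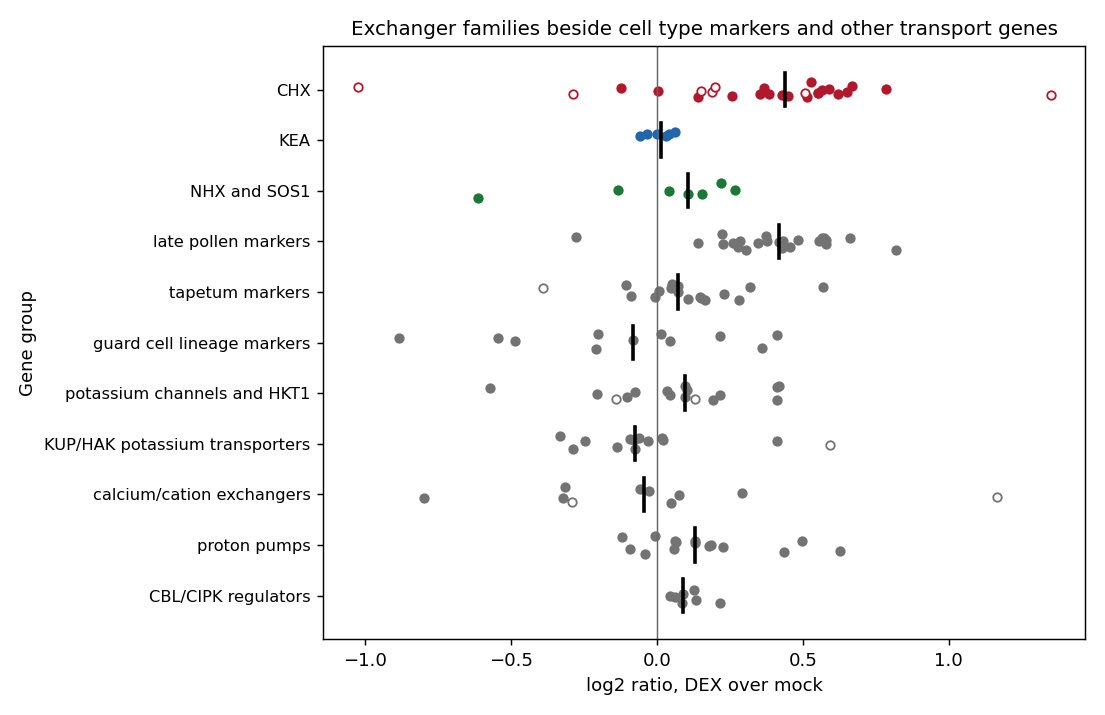
Log2 ratio of DEX over mock for the genes of each exchanger family, of 3 marker lists and of 5 lists of other ion transport genes; filled points had at least 200 reads over both pools, open points fewer, and vertical bars are medians over all points of a row. CHX (0.44) and the late pollen markers (0.42) have the highest medians, and the other rows lie between -0.08 and 0.13.

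The exchangers work beside other carriers of potassium, calcium and protons, and these lists differed in direction. For comparison, 41.8% of all genes with at least 200 reads were called higher and 24.5% lower. Among all genes with reads in both pools, 36.4% were called higher and 20.8% lower. The counts below include 1 KUP/HAK gene and 2 channel genes with fewer than 200 reads. Of 13 KUP/HAK potassium transporters, which take up potassium with protons, 1 was called higher, 7 lower and 5 neither, with a median of -0.07. KUP2, KUP3 and KUP11 were called lower at -0.09 ± 0.02, -0.25 ± 0.02 and -0.29 ± 0.02, as was AT1G60160 at -0.33 ± 0.03, and KUP9 was higher at 0.41 ± 0.03. Of 16 potassium channels with the sodium carrier HKT1, 6 were called higher, 3 lower and 7 neither, with a median of 0.10. Of their deeper members, AKT2 stood at -0.10 ± 0.02 and AKT5 at 0.10 ± 0.04, while the root channel AKT1 was at -0.57 ± 0.16 and the outward channel SKOR at 0.42 ± 0.15.

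Calcium/cation exchangers, which also swap cations for protons, had 2 of 10 called higher, 3 lower and 5 neither, with a median of -0.04. In this list 2 genes had fewer than 200 reads. 1 of those was called higher, from 18 reads in DEX and 9 in mock, at 1.17 ± 0.59. CAX1, a vacuolar calcium/proton exchanger, had 7123 reads in DEX and 14430 in mock, at -0.80 ± 0.02, a lower ratio than that of any called CHX, KEA or NHX gene. CAX3 and CAX7 were called lower at -0.32 ± 0.03 and -0.32 ± 0.05, and CCX4, at -0.03 ± 0.03, was not called. Proton pumps build the gradient that the exchangers use. Of 15 pumps, 11 were called higher, 3 lower and 1 neither, with a median of 0.13. All 15 had at least 200 reads, a limit past which 41.8% of all genes were called higher and 24.5% lower. Their median depth was 52457.5 reads over both pools, beside 4922 for those genes. AHA10 and AHA8 were highest at 0.63 ± 0.08 and 0.50 ± 0.01. The deepest pumps were AVP1 of the vacuole, called lower at -0.12 ± 0.01, AHA1 at 0.06 ± 0.01 and AHA9 at 0.23 ± 0.01. Of 7 calcium sensors and kinases that regulate ion carriers, 4 were called higher, 0 lower and 3 neither, with a median of 0.09; CIPK8 stood at 0.08 ± 0.03, CIPK23 at 0.13 ± 0.03 and CBL10 at 0.22 ± 0.04.

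The authors' deposited table also annotates genes with terms, some of which hold 1 exchanger family and others several. The term for monovalent cation:hydrogen antiporters holds 28 genes, 27 of them CHX. Sodium:hydrogen antiporters number 35 there, with 25 CHX and all 7 NHX genes, and potassium:hydrogen antiporters number 8, with all 6 KEA genes. Cation transport holds 84 genes, among them 27 CHX, 6 KEA and 2 NHX genes, and potassium ion transport holds CHX13 beside the 6 KEA genes. CHX21 and CHX23 are 2 of the 10 genes annotated to pollen tube guidance, and CHX20 is 1 of 2 for water homeostasis. NHX1, NHX4 and SOS1 are 3 of 355 for the response to salt stress.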

How the data were processed

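Poly-A RNA of 8 libraries was run on an Illumina Genome Analyzer, as the labels' protocols say; TopHat 1.2.0, HTSeq 0.4.5p6 and TAIR10 are named in the submitters' processing notes, without roles. The authors deposited 1 table in the output format of LOX, which estimates relative expression from read counts, per the file headers. Its levels are a ratio to the lower treatment, set to 1 by the authors. Its posterior probabilities of direction are fractions between 0 and 1, per the file headers. The deposited log-likelihood score was taken to be N ln(N/T) - N summed over both treatments, where N is a gene's reads in a pool and T the pool's total. This formula is stated in no source; under it, totals came out whole to within 0.1 for 99.98% of the 8294 genes with up to 1000 reads. Whether PCR copies were removed was not given, and intervals cover counting error only. Since no values per library were used, the planned count models had no input, and the fallback of the authors' posterior was applied. The normal score of that posterior rose with the ratio over its counting error with a slope of 1.00 over 8089 genes, so it holds no visible spread between replicates.

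Members and the 8 lists, with 110 different genes, were chosen with earlier results of these data known. Named are all 41 members and, from each list, the 3 genes with the most reads and the 2 with the largest absolute log2 ratio among those with at least 200 reads. A gene that this rule takes is not reported here. The TAIR10.1 annotation of RefSeq gave positions, exon lengths and overlaps, and held 28009 of the listed IDs. Overlaps with other genes touched 10 members. Alignments used blastn 2.17.0; other work used Matplotlib 3.10.9, SciPy 1.17.1, pandas 2.3.3, NumPy 2.4.6 and Python 3.11.15. Tested on simulated reads for 24595 genes, the steps called 99.5% of 200 genes changed 1.5-fold in the right direction and 9.71% of unchanged genes. The simulated reads held counting error only, without spread between replicates. Calls there came from the ratio over its counting error, not from the deposited posterior. These rates therefore do not give the error rate of the calls in the real data. Alternatives tried were a limit of 0.01 on the posterior, the median of all genes set to 0, a 1.5-fold minimum, a minimum of 200 reads, a pseudocount of 0.5 reads, leaving out CHX16 to CHX20 or members that overlap other genes, and a correction for GC content and length in 20 bins.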

Additional observations from a re-analysis of the deposited data

How the results depend on the processing

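The 17 CHX genes called higher numbered 17 with a posterior limit of 0.01, with the median of all genes set to 0 and with at least 200 reads, and 14 without overlapping genes or without CHX16 to CHX20. With a 1.5-fold minimum, 5 CHX genes were called higher and 0 lower, 0 KEA genes in either direction, and 0 NHX genes higher and 1 lower. Without CHX16 to CHX20, 0 CHX genes were called lower. The CHX median ranged from 0.39 to 0.51 over all alternatives. The KEA gene called higher was lost (0 called) with a posterior limit of 0.01, with the median set to 0 and with the correction for GC content and length. The KEA gene called lower was also lost (0) with the limit of 0.01, and became 3 with the median set to 0, where KEA1 stood at -0.0115. Without overlapping genes, 2 NHX genes were called higher and the NHX median was -0.0140; fewer genes enter it. Of the 39 single ratios, 37 kept their call with the limit of 0.01 and 35 with the median set to 0. With the GC and length correction, 36 kept it. Calls were not recomputed with the pseudocount, so that setting bears on the ratios only. With the median set to 0 and with the correction, calls were remade from the ratio over its counting error, not from the deposited posterior. SOS1 lost its call in both settings, and NHX5 gained one with the correction. The GC and length correction, the calls without overlapping genes or CHX16 to CHX20 and the 500-base promoter window were chosen after seeing the data. No paired analysis was possible because the table holds 1 pooled value per gene and treatment; leave-one-out fits and count models could not be run for the same reason. Counting errors of the CHX genes under 200 reads ran from 0.21 to 1.56 on the log2 scale.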
